A study of Mus musculus with 6 samples.

Results

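The 9 genes described here make, load or remodel the lipids of the epidermal permeability barrier: Elovl1, Elovl4, Cers3, Ugcg, Abca12, Smpd1, Alox12b, Aloxe3 and Abhd5. They were chosen by name as epidermal ceramide, lipoxygenase and lipid transport genes, with earlier results of these data known. They are 9 of the 24453 gene symbols counted. RNA was sequenced from newborn mouse epidermis, with 3 libraries from Eed conditional knockout mice (Eed cKO) and 3 from control mice, all at postnatal day 0. Eed encodes the subunit of the Polycomb complex PRC2 that binds trimethylated H3K27, the histone mark this complex writes. Back skin was digested, and interfollicular epidermal cells that carried EpCAM and Sca1 and were high for α6-integrin were sorted, a gate that enriches for progenitors. Total RNA was amplified before the libraries were made. The sources used here do not give the alleles of the control mice, the Cre driver, the exons removed from Eed, the strain or the number of animals behind each library. Since separate animals are not stated, p-values measure the spread between these libraries, which may be technical.

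The barrier of the epidermis is a sheet of lipid between the dead cells of the outermost layer. Keratinocytes lengthen fatty acids to unusually long chains, join them to a sphingoid base as ceramides, cap these with glucose and load them into lamellar granules that are secreted as the cells leave the living layers. Outside the cell the sugar is removed. Lipoxygenases oxidise the linoleate on acylceramides so that they can be bound to the protein envelope. Inherited loss of several of these genes causes ichthyosis in humans. The pathway belongs mainly to suprabasal keratinocytes, whereas the gate used here is for basal cells.

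Libraries held between 20998149 and 27447679 counts in Eed cKO and between 25481306 and 29998531 counts in control. Levels below are CPM, counts scaled to the size of the library, after TMM normalisation between libraries. Eed was at 37.0, 33.7 and 29.2 CPM in the Eed cKO libraries, against 45.1, 41.1 and 53.1 CPM in control, a log2 fold change of -0.48 ± 0.19 (SE) with an adjusted p of 0.252 by edgeR's quasi-likelihood test. Its ranges did not overlap, but the call was not made. Counts over a whole gene need not show the loss of a few exons, and 261 of Eed's exonic bases are shared with an opposite-strand gene. Xist was at 8.55 CPM in Eed cKO library 2 and between 5297 and 7757 CPM in the other 5, so that library stood apart from the others of its group. The 45S ribosomal RNA symbol Rn45s took 7.26%, 6.78% and 6.86% of counts in Eed cKO libraries 1, 2 and 3, against 5.24%, 2.18% and 3.95% in control libraries 1, 2 and 3. The basal keratin Krt5 was at 22537 ± 3674 CPM in Eed cKO and 22623 ± 3399 CPM in control (SD, n = 3 each). The basal keratin Krt14 was at 4930 ± 1161 CPM in Eed cKO and 5461 ± 732 CPM in control. The suprabasal keratin Krt1 was abundant as well, at 4010 ± 1332 CPM in Eed cKO and 2227 ± 516 CPM in control.

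Of the 9 genes, 2 rose in Eed cKO epidermis and 0 fell. Elovl4, the elongase that makes the longest fatty acid chains of barrier ceramides, rose 2.68-fold. Abca12, the transporter that loads lipid into lamellar granules, rose 2.06-fold. The calls were made across all 14700 genes tested, of which 3.39% were called higher, 0.816% lower and 4.21% in either direction. The ranges of the 3 Eed cKO and 3 control libraries lay apart for the same 2 members, both higher, against 11.0% of all genes tested with ranges apart and higher, 9.22% lower and 20.3% either way. In sorted bulk cells, more cells of a kind and more RNA per cell cannot be told apart. The other 7 genes, among them Cers3, Ugcg and both lipoxygenases, did not pass the test. Fold changes of 8 of the 9 were positive, with a median log2 fold change of 0.25, against -0.01 over all genes tested. None of the 9 was lower at an unadjusted p under 0.05 in edgeR, and DESeq2 and limma-voom likewise called 2 higher and 0 lower. In Eed cKO libraries 1, 2 and 3 the 9 genes summed to 339, 374 and 429 CPM, against 261, 303 and 317 CPM in control libraries 1, 2 and 3. These sums did not overlap, but without Elovl4 and Abca12 the other 7 genes summed to 272, 289 and 327 CPM in Eed cKO and to 235, 257 and 283 CPM in control, which overlapped.

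**Figure D1:**
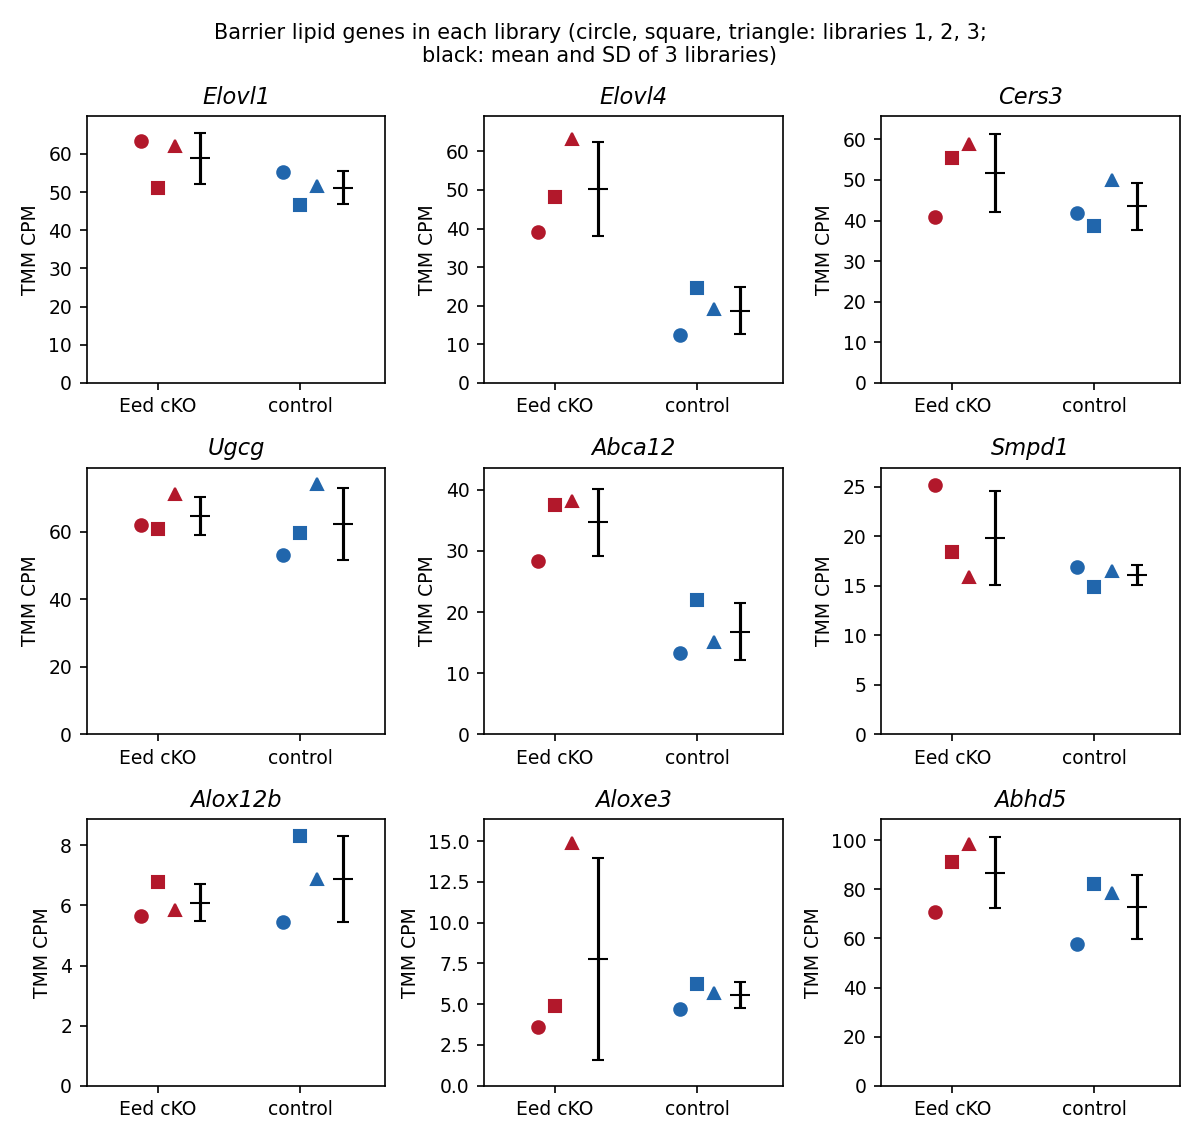
Each panel plots 1 gene, with TMM-scaled CPM on the y axis from 0, the 3 Eed cKO libraries in red on the left, the 3 control libraries in blue on the right, and the mean with SD in black beside each group. Elovl4 and Abca12 are the 2 panels in which every Eed cKO library lies above every control library, and Aloxe3 shows a single high library at 14.9 CPM in Eed cKO.

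The DNA just before the start of 4 of these genes is given because the genes that rose and the genes that did not can then be set side by side: Elovl4 and Abca12, which rose, and Elovl1 and Cers3, which act at neighbouring steps and were not called. Polycomb complexes are known to occupy CpG-rich promoters in mammals, so the CG dinucleotides are in capitals. Each run is the 250 bases before the RefSeq start on GRCm38.p6, written 5′ to 3′ on the strand of the gene.
Elovl4, chr9:83806306-83806555, minus strand: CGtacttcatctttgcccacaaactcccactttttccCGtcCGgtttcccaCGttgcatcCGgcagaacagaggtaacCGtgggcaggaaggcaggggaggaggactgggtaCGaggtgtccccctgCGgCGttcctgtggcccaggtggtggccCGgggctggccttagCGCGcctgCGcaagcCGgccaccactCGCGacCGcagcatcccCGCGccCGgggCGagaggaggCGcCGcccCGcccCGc
Abca12, chr1:71414911-71415160, minus strand: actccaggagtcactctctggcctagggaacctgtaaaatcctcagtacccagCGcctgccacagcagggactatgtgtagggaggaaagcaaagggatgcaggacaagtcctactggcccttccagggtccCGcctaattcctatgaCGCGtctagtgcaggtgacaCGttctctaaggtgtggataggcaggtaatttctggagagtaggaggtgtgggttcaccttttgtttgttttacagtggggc
Elovl1, chr4:118427843-118428092, plus strand: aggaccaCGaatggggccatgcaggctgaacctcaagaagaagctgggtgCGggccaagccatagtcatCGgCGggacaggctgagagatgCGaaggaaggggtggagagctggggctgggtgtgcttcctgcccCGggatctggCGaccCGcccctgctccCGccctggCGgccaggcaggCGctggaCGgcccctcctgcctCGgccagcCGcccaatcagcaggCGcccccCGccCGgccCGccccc
Cers3, chr7:66743254-66743503, plus strand: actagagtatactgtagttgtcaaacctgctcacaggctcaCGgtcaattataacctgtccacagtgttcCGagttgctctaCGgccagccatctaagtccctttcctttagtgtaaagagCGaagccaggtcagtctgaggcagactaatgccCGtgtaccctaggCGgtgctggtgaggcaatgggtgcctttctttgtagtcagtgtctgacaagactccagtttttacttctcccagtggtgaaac

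The genes that rose did not share CG density. The Elovl4 run held 25 CG dinucleotides, more than 89.3% of the 32851 RefSeq promoters of that length, while the Abca12 run held 5, more than 44.4%. Among the genes not called, Elovl1 held 18 and Cers3 held 6. A second RefSeq entry of Elovl1, chr4:118429451-118429700, held 5 and is not printed. The other members with a RefSeq entry held 43 in Ugcg, 22 in Abhd5, 16 in Smpd1 and 11 in Alox12b, so 8 of the 9 matched; Aloxe3 is named only. The median promoter held 6 and the quartiles were 2 and 16. RefSeq and GENCODE starts differ for some of these genes. By the GENCODE starts, the windows of Ugcg and of the second Elovl1 entry lie within the gene. Those of Alox12b and Abhd5 end within it. No chromatin mark was measured, and these counts describe sequence alone.

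Among 6 motifs searched on both strands, the GC box GGGCGG was found in 6 of the 8 promoters and in 32.7% of all promoters. It stood 2 times in Elovl4, 5 in Elovl1, 3 in Alox12b, 2 in Ugcg, 4 in Smpd1 and 1 in Abhd5, and 0 times in Abca12 and Cers3. CCAAT, in 33.8% of all promoters, was found 1 time in Elovl1 and 1 time in Smpd1. The second Elovl1 entry, not among the 8, held GGGCGG 2 times and CCAAT 0 times. None of the 8 windows held the TATA box TATAAA, which is in 12.4% of all promoters, or the E-box CACGTG, which is in 6.02%. The AP-1 motif TGANTCA, in 6.75% of all promoters, and the grainyhead motif AACNGGTT, in 1.79%, were also not found in these windows. The 6 motifs were counted separately.

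The elongases come first in the pathway. Elovl4 (chr9:83778692-83806277, minus strand, GRCm38) was at 39.1, 48.1 and 63.3 CPM in Eed cKO libraries 1, 2 and 3, against 12.4, 24.5 and 19.1 CPM in control libraries 1, 2 and 3. The lowest Eed cKO library was above the highest control library, and these levels rest on 1074 to 1307 counts in Eed cKO and 332 to 768 in control. The means were 50.2 ± 12.2 CPM in Eed cKO and 18.7 ± 6.07 CPM in control (SD, n = 3 each). The log2 fold change was 1.42 ± 0.27 (SE), a 2.68-fold rise with a 95% interval from 1.81 to 3.97 and an adjusted p of 0.00654 by edgeR's quasi-likelihood test. Elovl4 passed in all 14 alternatives, with log2 fold changes between 1.19 and 1.68 and the largest adjusted p, 0.0491, without Eed cKO library 3. Without Eed cKO library 2, which stood apart in Xist, the log2 fold change was 1.46 with an adjusted p of 0.0279.

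Elovl1, which lengthens saturated fatty acids to the lengths that Elovl4 extends further, lay close together in both genotypes. It was at 63.4, 51.1 and 62.0 CPM in Eed cKO, against 55.3, 46.6 and 51.6 CPM in control. The groups overlapped, the means were 58.8 ± 6.77 CPM in Eed cKO and 51.1 ± 4.37 CPM in control (SD, n = 3 each), and the fold was 1.15 with a 95% interval from 0.880 to 1.50 (adjusted p = 0.700 by edgeR). Elovl1 (chr4:118428093-118432953, plus strand) shares 53 exonic bases with Cdc20 on the opposite strand, and the sources used here do not say whether counting used strand.

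The ratio of Elovl4 to Elovl1 within a library sets the genes side by side free of scaling. In Eed cKO libraries 1, 2 and 3 it was 0.617, 0.942 and 1.02, against 0.225, 0.527 and 0.371 in control libraries 1, 2 and 3. The groups did not overlap, and the exact two-sided permutation p was 0.1, the smallest that 3 against 3 libraries can give. It is 1 of 11 ratios computed after the members' values had been seen, and the adjusted p over those 11 was 0.157.

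Cers3, the ceramide synthase that joins ultra-long acyl chains to the sphingoid base, was not called. Its levels were 40.9, 55.5 and 59.0 CPM in Eed cKO, against 42.0, 38.7 and 49.9 CPM in control. Eed cKO libraries 2 and 3 lay above all controls, and Eed cKO library 1 lay among them. The means were 51.8 ± 9.58 CPM in Eed cKO and 43.5 ± 5.77 CPM in control (SD, n = 3 each), a fold of 1.19 with a 95% interval from 0.882 to 1.60 (adjusted p = 0.657 by edgeR). Cers3 lies at chr7:66743504-66823691, plus strand. The ratio of Cers3 to Elovl4 was 1.05, 1.15 and 0.932 in Eed cKO, against 3.38, 1.58 and 2.61 in control, lower in every Eed cKO library (exact permutation p = 0.1, the smallest possible). This ratio too is among the 11 computed after the members' values had been seen (adjusted permutation p = 0.157).

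**Figure D2:**
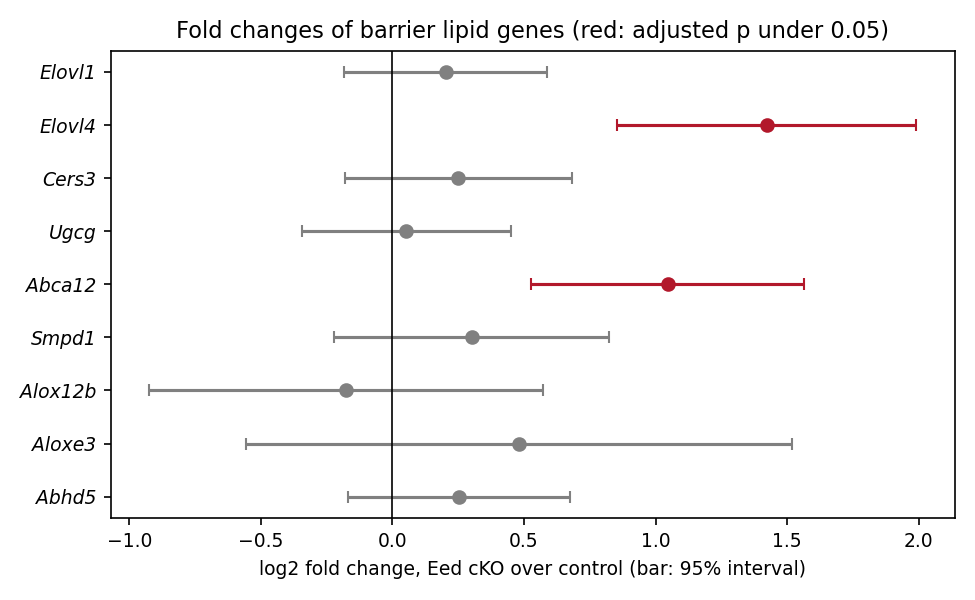
The x axis gives the log2 fold change of Eed cKO over control for each of the 9 genes in pathway order, with bars for the 95% interval and red for an adjusted p under 0.05. The intervals of Elovl4 (1.42) and Abca12 (1.05) lie above 0, and those of the other 7 genes span 0, widest for Aloxe3.

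Next come glucose capping and loading. Ugcg, which adds glucose to ceramide, had the smallest fold change of the 9, at 62.2, 60.8 and 71.2 CPM in Eed cKO against 53.3, 59.6 and 74.2 CPM in control. The Eed cKO range lay inside the control range. Its means were 64.7 ± 5.63 CPM in Eed cKO and 62.4 ± 10.7 CPM in control (SD, n = 3 each). The fold was 1.04 with a 95% interval from 0.789 to 1.37 (adjusted p = 0.949 by edgeR), and the sign of the change was negative without Eed cKO library 3 (log2 fold change -0.021) or without control library 1 (-0.051). Ugcg lies at chr4:59189257-59222833, plus strand.

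Abca12, the lamellar granule transporter whose loss causes harlequin ichthyosis in humans, had 28.4, 37.6 and 38.1 CPM in Eed cKO libraries 1, 2 and 3, against 13.3, 22.0 and 15.0 CPM in control libraries 1, 2 and 3. All Eed cKO libraries were above all controls, on 779 to 936 counts in Eed cKO and 355 to 689 in control. The means were 34.7 ± 5.46 CPM in Eed cKO and 16.8 ± 4.62 CPM in control (SD, n = 3 each). The log2 fold change was 1.05 ± 0.24 (SE), a 2.06-fold rise with a 95% interval from 1.44 to 2.96 and an adjusted p of 0.0247 by edgeR. The rise stayed positive in all 14 alternatives, between 0.90 and 1.31 on the log2 scale. The call was lost with edgeR without Eed cKO library 2 (adjusted p = 0.106), Eed cKO library 3 (0.111), control library 1 (0.0822) or control library 3 (0.125). Abca12 lies at chr1:71242276-71414910, minus strand.

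**Figure D3:**
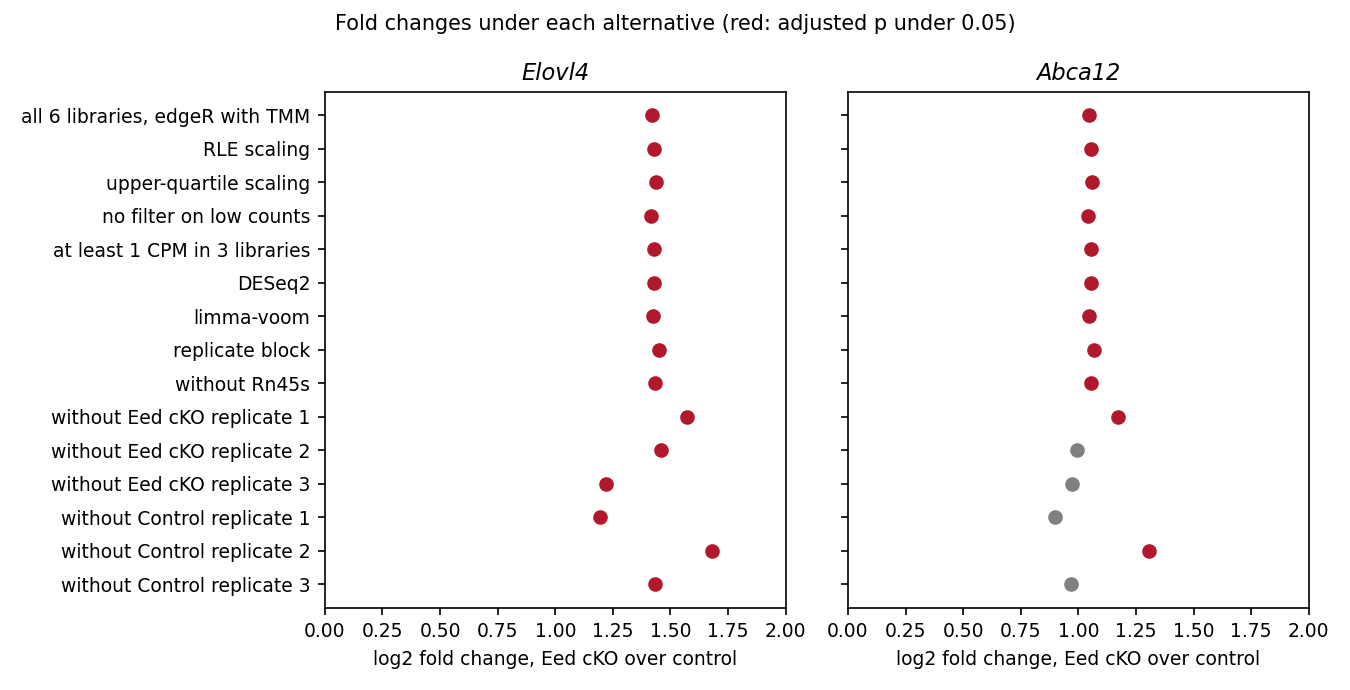
The x axis of each panel gives the log2 fold change of Eed cKO over control, with 1 row for all 6 libraries in edgeR with TMM and 1 for each of the 14 alternatives, and red for an adjusted p under 0.05. Every point of Elovl4 is red, between 1.19 and 1.68, whereas Abca12 is grey in 4 of the 6 rows that leave out a library.

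Relative to Ugcg, which acts one step earlier, Abca12 was higher in every Eed cKO library than in every control library. The ratio of Abca12 to Ugcg was 0.456, 0.618 and 0.535 in Eed cKO, against 0.249, 0.369 and 0.203 in control (exact permutation p = 0.1, the smallest possible). Elovl4 to Abca12 also lay apart, at 1.38, 1.28 and 1.66 in Eed cKO against 0.935, 1.11 and 1.27 in control, so the gap between the groups was narrow. Both ratios are among the 11 computed after the members' values had been seen (adjusted permutation p = 0.157 for each).

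Smpd1, the acid sphingomyelinase that turns secreted sphingomyelin into ceramide, had 25.1, 18.5 and 15.9 CPM in Eed cKO, against 16.9, 14.9 and 16.5 CPM in control. Eed cKO library 1 was the highest of the 6 and Eed cKO library 3 fell among the controls. Means were 19.8 ± 4.78 CPM in Eed cKO and 16.1 ± 1.04 CPM in control (SD, n = 3 each), with a fold of 1.23, a 95% interval from 0.858 to 1.77 and an adjusted p of 0.658 by edgeR. The gene lies at chr7:105554360-105558389, plus strand.

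The lipoxygenase pair was expressed at low levels, and neither gene was called. Alox12b, which makes the first oxidation of acylceramide linoleate, had 5.65, 6.78 and 5.86 CPM in Eed cKO, against 5.46, 8.31 and 6.87 CPM in control. It was the only member with a negative fold change in the comparison of all 6 libraries. The groups overlapped, with means of 6.10 ± 0.604 CPM in Eed cKO and 6.88 ± 1.42 CPM in control (SD, n = 3 each), a fold of 0.886, a 95% interval from 0.527 to 1.49 and an adjusted p of 0.900 by edgeR. With 121 to 169 counts in Eed cKO and 146 to 260 in control, this interval still holds a fall to 0.527-fold.

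Aloxe3, which converts the product of Alox12b, had 3.57, 4.90 and 14.9 CPM in Eed cKO, against 4.71, 6.26 and 5.70 CPM in control. One library, Eed cKO 3 with 308 counts, stood far above the other 5, whose counts ran from 98 to 122 in Eed cKO and from 126 to 196 in control. The means were 7.79 ± 6.20 CPM in Eed cKO and 5.56 ± 0.785 CPM in control (SD, n = 3 each), and the fold was 1.40 with a 95% interval from 0.681 to 2.87 (adjusted p = 0.744 by edgeR). Without that library the log2 fold change was -0.39 with an adjusted p of 0.827, against 0.48 with it. The ratio of Aloxe3 to Alox12b was 0.632, 0.722 and 2.55 in Eed cKO, against 0.863, 0.754 and 0.830 in control, with Eed cKO libraries on both sides of the controls.

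Both lipoxygenase genes stand in 1 cluster on chromosome 11. Aloxe3 (chr11:69125896-69149115) and Alox12b (chr11:69156989-69169792) lie on the plus strand with 7873 bases between them, and Alox8 (chr11:69183932-69197843, minus strand) follows 14139 bases further on.

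Abhd5, the cofactor of lipid droplet lipases whose loss causes neutral lipid storage disease with ichthyosis in humans, had the highest CPM of the 9. It was at 70.6, 91.2 and 98.6 CPM in Eed cKO, against 57.7, 82.3 and 78.5 CPM in control. Eed cKO libraries 2 and 3 were above all controls and library 1 was not. The means were 86.8 ± 14.5 CPM in Eed cKO and 72.8 ± 13.2 CPM in control (SD, n = 3 each), a fold of 1.19 with a 95% interval from 0.891 to 1.59 (adjusted p = 0.636 by edgeR). Abhd5 (chr9:122351608-122381524, plus strand) shares 950 exonic bases with A730085K08Rik on the opposite strand, so its counts may hold reads of both.

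Levels of different genes can be set beside each other only per length. On the scale of CPM per kilobase of exon, Elovl1 was first in both genotypes, at 21.6 ± 2.48 in Eed cKO and 18.8 ± 1.60 in control (SD, n = 3 each). Elovl4 was the second in Eed cKO at 16.6 ± 4.03, and the fifth in control at 6.18 ± 2.01 CPM per kilobase. Between them in control came Cers3 at 13.4 ± 1.77, Abhd5 at 12.2 ± 2.22 and Ugcg at 12.0 ± 2.05 CPM per kilobase, which overlapped each other. In Eed cKO the first 5, Elovl1, Elovl4, Cers3, Abhd5 and Ugcg, formed a run in which each neighbour overlapped the next. In control Elovl1 was apart from Cers3, and Ugcg was apart from Elovl4.

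The lower end of the order held Smpd1, Alox12b, Abca12 and Aloxe3 in both genotypes. Smpd1 was at 5.94 ± 1.43 CPM per kilobase in Eed cKO and 4.83 ± 0.313 in control, and was apart from Alox12b in both. Abca12, a long transcript, was at 2.34 ± 0.369 CPM per kilobase in Eed cKO, where it overlapped Alox12b at 2.51 ± 0.249, and at 1.13 ± 0.312 in control, where it was apart from Alox12b at 2.83 ± 0.586. Aloxe3 was last in both, at 1.22 ± 0.969 CPM per kilobase in Eed cKO and 0.869 ± 0.123 in control, overlapping Abca12.

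Another 113 genes of the same lipid pathways, in 7 lists, were read beside the 9. Of the 105 that passed the filter on low counts, 12 were higher (11.4%), 1 was lower (0.952%) and 92 were not called, against 3.39% and 0.816% of all genes tested. Their median log2 fold change was 0.11. By list, the calls lay in fatty acid supply, ceramide synthesis and the lipoxygenase pathway, with 10 of the 12 genes called higher. Elovl2 and Alox8, among those 10, and Cidea, which was not called, passed the filter through the Eed cKO libraries alone. They were not taken out of these shares. The lists were chosen with earlier results of these data known.

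**Figure D4:**
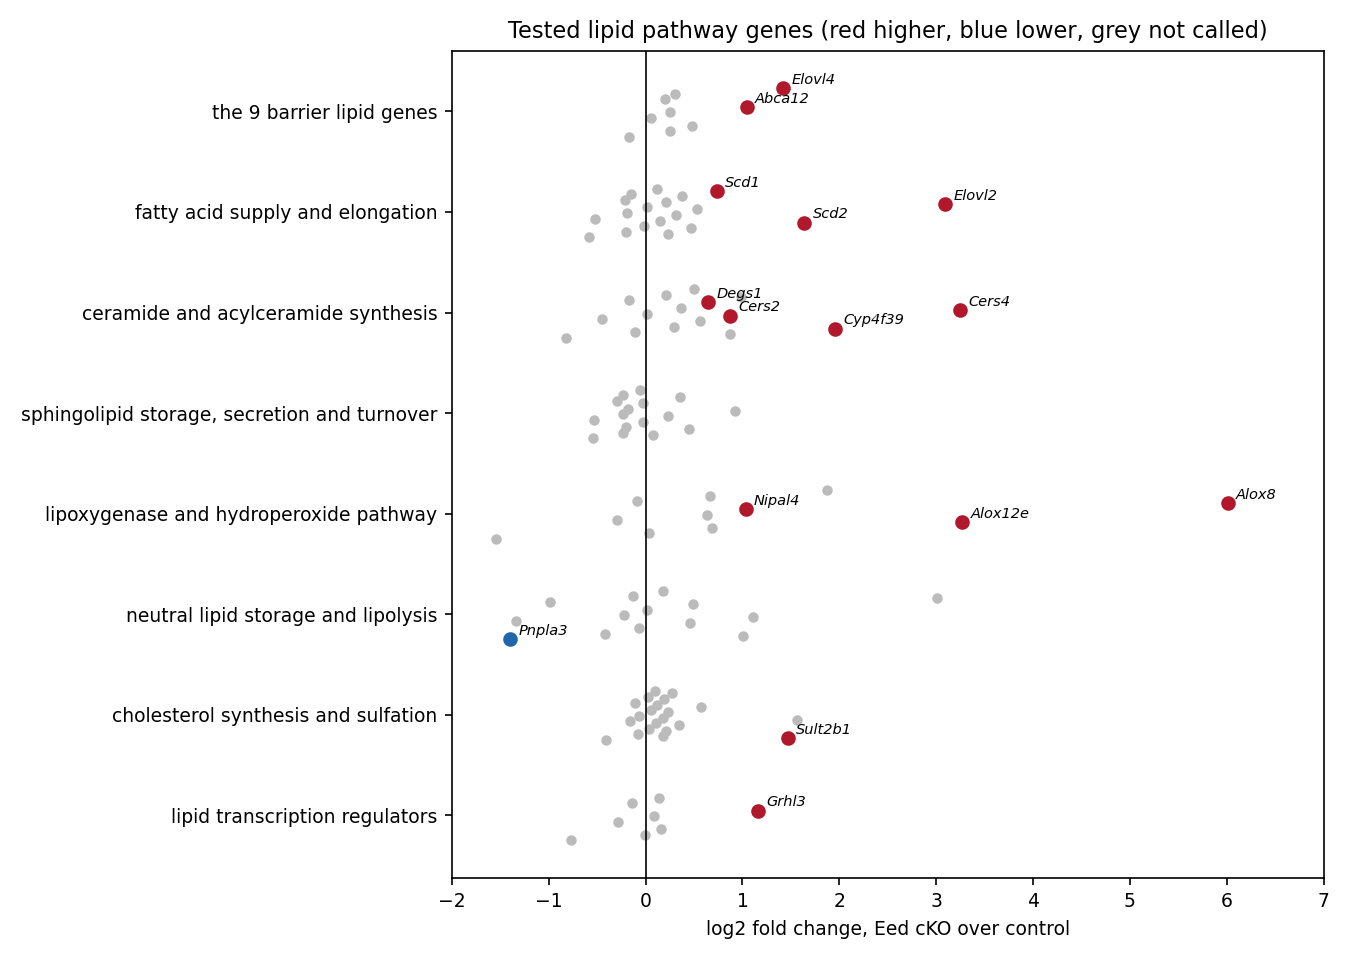
Each point is a tested gene, placed by its log2 fold change of Eed cKO over control on the x axis and by its list on the y axis, in red where called higher, blue where called lower and grey where not called. Called genes lie in all lists but sphingolipid storage, secretion and turnover, where 0 of 16 were called.

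Fatty acid supply and elongation had 3 genes higher and 0 lower of 19 tested, with a median log2 fold change of 0.15. Scd2, a stearoyl-CoA desaturase, was at 349, 455 and 360 CPM in Eed cKO, against 106, 99.2 and 169 CPM in control, a log2 fold change of 1.64 ± 0.21 (adjusted p = 0.000426 by edgeR) that passed in every alternative. Its homologue Scd1 averaged 82.9 ± 13.0 CPM in Eed cKO and 49.7 ± 7.83 CPM in control (SD, n = 3 each; log2 fold change 0.74, adjusted p = 0.0463 by edgeR). The Scd1 call was lost without Eed cKO library 2 (0.143) or 3 (0.205) and without control library 1 (0.133), 2 (0.138) or 3 (0.0647). Elovl2, an elongase of polyunsaturated chains, averaged 2.16 ± 0.456 CPM in Eed cKO and 0.249 ± 0.0340 CPM in control (adjusted p = 0.0423 by edgeR), passed the filter through the Eed cKO libraries alone, and was lost when any 1 library was left out (adjusted p from 0.0938 to 0.153) and with limma-voom on all 6 (0.0826). Elovl5, with a similar role, was not called (log2 fold change 0.53, adjusted p = 0.198 by edgeR).

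Ceramide and acylceramide synthesis had 4 genes higher and 0 lower of 16 tested, with a median log2 fold change of 0.43. The calls include the ceramide synthases Cers4 and Cers2, and their difference from Cers3 was not tested. Cers4, which uses long acyl chains, was at 6.70, 10.5 and 8.04 CPM in Eed cKO, against 1.80, 0.320 and 0.547 CPM in control, a log2 fold change of 3.24 ± 0.60 (adjusted p = 0.00645 by edgeR) that passed in every alternative and was 4.27 without control library 1. Cers2, which uses very long chains, was at 69.1, 51.3 and 66.2 CPM in Eed cKO, against 34.2, 36.0 and 31.6 CPM in control, a log2 fold change of 0.87 ± 0.19 (adjusted p = 0.0173 by edgeR). Its call was lost without Eed cKO library 1 (0.0533) or 3 (0.0820), or control library 3 (0.0990). Both overlap other genes' exons, over 1100 bases for Cers4 and 219 for Cers2.

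Degs1, the desaturase that completes the ceramide backbone, averaged 171.5 ± 7.30 CPM in Eed cKO and 109 ± 8.76 CPM in control (SD, n = 3 each; log2 fold change 0.65, adjusted p = 0.0292 by edgeR). Cyp4f39, the hydroxylase that prepares ultra-long chains for the linoleate of acylceramide, was at 5.03, 5.38 and 6.39 CPM in Eed cKO, against 0.860, 1.28 and 2.19 CPM in control (log2 fold change 1.95 ± 0.51, adjusted p = 0.0475 by edgeR). Both rose in every Eed cKO library above every control. Degs1 was lost without Eed cKO library 2 (0.0821) or 3 (0.117), or control library 2 (0.0862) or 3 (0.160). Cyp4f39 was lost without Eed cKO library 1 (0.0739), 2 (0.138) or 3 (0.174), or control library 1 (0.109) or 2 (0.113).

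Sphingolipid storage, secretion and turnover, the list nearest to Smpd1, had 0 of 16 genes called and a median log2 fold change of -0.12. At an unadjusted p under 0.05 edgeR had 1 higher and 1 lower of the 16, against 2185 of all 14700 genes tested in either direction. After adjustment DESeq2 called 1 higher and limma-voom called 0. Sgms2, which makes sphingomyelin, averaged 22.9 ± 5.59 CPM in Eed cKO and 12.0 ± 1.88 CPM in control (SD, n = 3 each; adjusted p = 0.0636 by edgeR), and passed with DESeq2 (0.0151), with no filter on low counts (0.0329) and without Eed cKO library 1 (0.0386). Asah2, a ceramidase, had a log2 fold change of -0.53 (adjusted p = 0.415), and Psap, the precursor of the saposins, one of -0.24 (0.529), both by edgeR.

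The lipoxygenase and hydroperoxide list had 3 genes higher and 0 lower of 11 tested, with a median log2 fold change of 0.66. Alox12e, an epidermal lipoxygenase of the mouse, was at 7.29, 11.5 and 10.8 CPM in Eed cKO, against 0.262, 0.895 and 1.91 CPM in control, a log2 fold change of 3.27 ± 0.59 (adjusted p = 0.00495 by edgeR). It passed in every alternative and was 4.06 on the log2 scale without control library 3. Alox8, a lipoxygenase known from irritated mouse skin, had 81 counts over the Eed cKO libraries and 1 over the controls, a ratio of 92.8 with an exact 95% interval from 16.2 to 3709 for counting error only. It was called (adjusted p = 0.0216 by edgeR) but passed the filter through the Eed cKO libraries alone, and it was lost when any 1 library was left out (adjusted p from 0.0506 to 0.0926). Without control library 3, which holds the 1 control count, no control count is left. Alox12e lies 1117766 bases beyond Alox8, outside the cluster of the 3.

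Nipal4, a membrane protein whose loss causes ichthyosis in humans, was at 23.4, 28.1 and 38.8 CPM in Eed cKO, against 19.0, 14.9 and 10.2 CPM in control (log2 fold change 1.03 ± 0.27, adjusted p = 0.0494 by edgeR). That call was lost without Eed cKO library 2 (0.115) or 3 (0.253), or control library 2 (0.109) or 3 (0.209), and on all 6 libraries with upper-quartile scaling (0.0540) or limma-voom (0.0505). Ephx3, an epoxide hydrolase acting after Aloxe3, averaged 8.68 ± 3.65 CPM in Eed cKO and 2.35 ± 1.98 CPM in control (SD, n = 3 each) and was not called (adjusted p = 0.0835 by edgeR), but it passed on all 6 libraries with DESeq2 (0.0122) or with no filter on low counts (0.00665), and without control library 2 (0.00841).

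Neutral lipid storage and lipolysis, the list nearest to Abhd5, had 0 genes higher and 1 lower of 14 tested, with a median log2 fold change of -0.02. Pnpla3, a lipid droplet protein related to the lipases that Abhd5 serves, fell to 6.08, 4.25 and 3.49 CPM in Eed cKO, against 12.6, 13.4 and 10.5 CPM in control (log2 fold change -1.40 ± 0.34, adjusted p = 0.0297 by edgeR). The call was lost without Eed cKO library 2 (0.120) or 3 (0.125), or control library 1 (0.0688), 2 (0.0940) or 3 (0.0663). Dgat2, which makes triglyceride, averaged 14.6 ± 7.99 CPM in Eed cKO and 6.81 ± 1.14 CPM in control (adjusted p = 0.150 by edgeR) and passed with no filter on low counts (0.0468) and without Eed cKO library 3 (0.0491). Cidea, of the lipid droplet surface, and Dgat1 had log2 fold changes of 3.01 (adjusted p = 0.218) and -0.42 (0.412) by edgeR, and Cidea passed the filter through the Eed cKO libraries alone.

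Cholesterol synthesis and sulfation had 1 gene higher and 0 lower of 21 tested, with a median log2 fold change of 0.12. The gene was Sult2b1, which makes the cholesterol sulfate of the outer epidermis, not an enzyme of cholesterol synthesis. It was at 21.4, 11.1 and 13.1 CPM in Eed cKO, against 7.41, 5.08 and 3.98 CPM in control (log2 fold change 1.47 ± 0.35, adjusted p = 0.0294 by edgeR), and was lost without Eed cKO library 1 (0.126) or 3 (0.0741), or control library 2 (0.0801) or 3 (0.127). Mvd, of the mevalonate pathway, had a log2 fold change of 1.56 (adjusted p = 0.103 by edgeR) and passed with DESeq2 (0.0231), with no filter on low counts (0.0451) and without control library 1 (0.0355). Msmo1, a sterol oxidase, had a log2 fold change of 0.58 (adjusted p = 0.360 by edgeR).

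Among transcription factors linked to these lipids, 1 of 8 tested was higher and 0 lower, with a median log2 fold change of 0.04. Grhl3, a factor required for barrier formation in the mouse, was at 118, 91.5 and 96.6 CPM in Eed cKO, against 57.6, 26.1 and 53.2 CPM in control (log2 fold change 1.16 ± 0.26, adjusted p = 0.0187 by edgeR). Its call was lost without Eed cKO library 1 (0.0540) or 3 (0.0674). The nuclear receptors Ppara, Nr1h2 and Rxra had log2 fold changes of -0.78 (adjusted p = 0.295), -0.28 (0.656) and -0.14 (0.797) by edgeR.

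Some suprabasal markers rose along with Elovl4 and Abca12. Krt10, the keratin of cells that have left the basal layer, was at 1551, 2428 and 2075 CPM in Eed cKO, against 841, 754 and 946 CPM in control (log2 fold change 1.25 ± 0.19, adjusted p = 0.00126 by edgeR). Its partner Krt1 was at 2575, 4247 and 5208 CPM in Eed cKO, against 1658, 2663 and 2360 CPM in control, and was not called (log2 fold change 0.85, adjusted p = 0.0711 by edgeR). Krt1 did pass with DESeq2 (0.00924), with no filter on low counts (0.00279) and without Eed cKO library 1 (0.0105). Of the 11 suprabasal markers 10 were tested, 2 were higher and 0 lower by edgeR (5 and 0 by DESeq2, 2 and 0 by limma-voom), and their sum ran from 5302 to 8332 CPM in Eed cKO and from 3575 to 4526 CPM in control. Most of that sum was Krt1 and Krt10, and the other 8 in the files summed to 1176, 1022 and 1049 CPM in Eed cKO and to 1075, 1109 and 878 CPM in control, which overlapped. The largest of these 8 was Krtdap, with means of 513 CPM in Eed cKO and 573 CPM in control. Fold changes of 8 of the 10 tested were positive, with a median log2 fold change of 0.77. At an unadjusted p under 0.05 edgeR had 6 higher and 1 lower, against 2185 of all 14700 genes tested in either direction. After adjustment edgeR called 3.39% of all genes tested higher and 0.816% lower. The second gene called was Tgm1, a transglutaminase of the cornified envelope, at 26.6, 26.3 and 19.6 CPM in Eed cKO against 10.1, 5.05 and 10.6 CPM in control, which was singled out after its values were seen. The late markers Lor and Ivl had log2 fold changes of 0.92 (adjusted p = 0.115) and 0.69 (0.727) by edgeR, and Flg was not among the gene symbols counted. Lor passed with DESeq2 (0.0489), with no filter on low counts (0.0398) and without Eed cKO library 1 (0.0489). Not all markers had positive fold changes: Casp14, a protease of cornification, averaged 61.0 CPM in Eed cKO and 99.2 CPM in control (log2 fold change -0.70, adjusted p = 0.208 by edgeR), and Krtdap had a log2 fold change of -0.16 (0.832). Both were singled out after their values were seen. The part of the suprabasal markers in the rise of Elovl4 and Abca12 was not tested.

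Basal markers did not pass in either direction. Of 6 tested, 0 were called by edgeR, DESeq2 or limma-voom, though all 6 fold changes were negative, with a median log2 fold change of -0.26. The ranges of 3, Trp63, Col17a1 and Krt15, lay apart and lower, against 9.22% of all genes tested. An unadjusted p under 0.05 was reached by 2185 of all 14700 genes tested, in either direction. Trp63 and Col17a1 were among these, with log2 fold changes of -0.37 each (adjusted p = 0.266 and 0.278 by edgeR). These 3 markers were singled out after their values were seen. The basal sum ran from 29258 to 38972 CPM in Eed cKO and from 34638 to 41189 CPM in control. Krt5 and Krt14 had log2 fold changes of -0.01 (adjusted p = 0.994) and -0.15 (0.825) by edgeR, and the sign of each is not settled, since scaling or leaving out a library turned it. Of the genes behind the gate, Epcam was at 120, 151 and 148 CPM in Eed cKO, against 64.5, 104 and 77.4 CPM in control (log2 fold change 0.77 ± 0.20, adjusted p = 0.0433 by edgeR), and its call was lost without Eed cKO library 2 (0.161) or 3 (0.165), or control library 1 (0.134) or 3 (0.171). Itga6 and Ly6a, which encode α6-integrin and Sca1, had log2 fold changes of 0.18 (adjusted p = 0.667) and 0.17 (0.863) by edgeR.

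**Figure D5:**
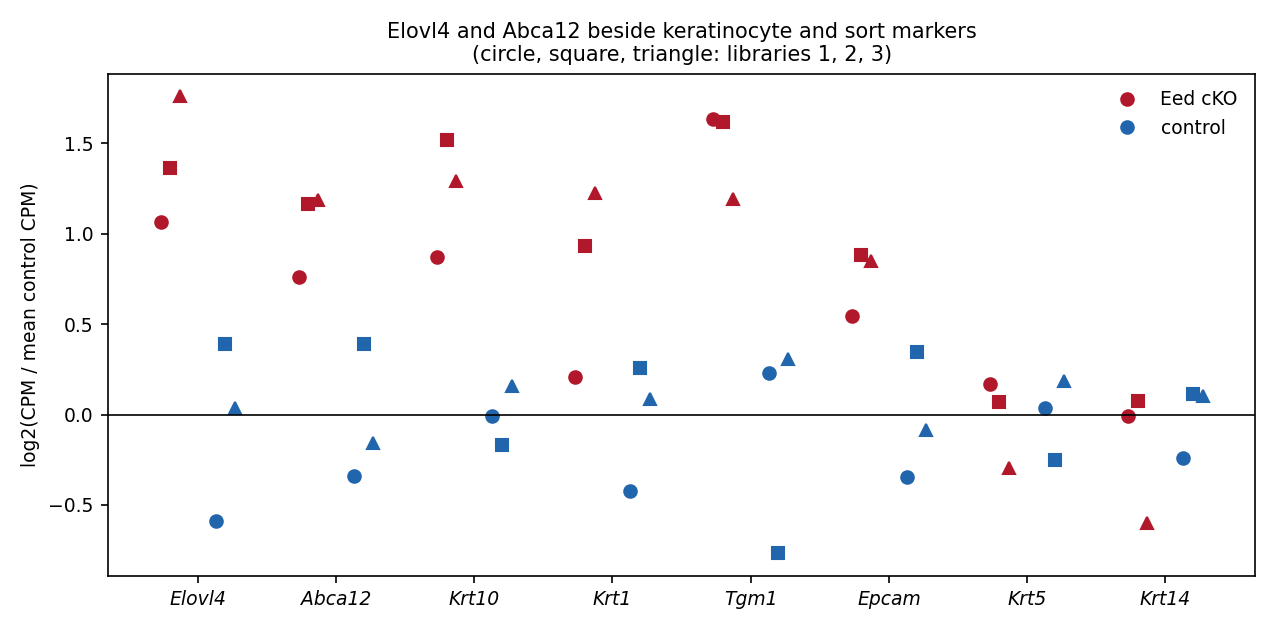
The y axis gives log2 of each library's CPM over the mean control CPM, for Elovl4, Abca12, the suprabasal markers Krt10, Krt1 and Tgm1, the sort gene Epcam and the basal keratins Krt5 and Krt14, with Eed cKO in red left of control in blue. For Elovl4, Abca12, Krt10, Tgm1 and Epcam every red point lies above every blue point, whereas Krt1, Krt5 and Krt14 overlap.

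Relative to Krt10, the groups overlapped for both genes. The ratio of Elovl4 to Krt10 was 0.0252, 0.0198 and 0.0305 in Eed cKO, against 0.0148, 0.0325 and 0.0202 in control (exact permutation p = 0.7). That of Abca12 to Krt10 was 0.0183, 0.0155 and 0.0184 in Eed cKO, against 0.0158, 0.0292 and 0.0159 in control (exact permutation p = 0.8). Relative to Krt1, the groups lay apart for Elovl4, at 0.0152, 0.0113 and 0.0121 in Eed cKO against 0.00749, 0.00921 and 0.00811 in control (exact permutation p = 0.1, the smallest possible), and overlapped for Abca12 (exact permutation p = 0.4). These ratios are among the 11 computed after the members' values had been seen, and the adjusted permutation p of Elovl4 to Krt1 was 0.157. A ratio shows unequal change, and 3 libraries a group cannot show that a ratio did not change.

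Markers of other cells were read beside the 9 as well, since fatty acid genes such as Scd1 and Scd2 are also used outside the interfollicular epidermis. Of 8 sebocyte markers 5 were tested and 3 were higher, Scd3, Fabp5 and Krt79, none of them exclusive to sebocytes. Over all genes tested, 3.39% were called higher. Scd3 was at 1.06, 1.20 and 2.42 CPM in Eed cKO against 0, 0.0959 and 0.117 CPM in control, so it passed the filter through the Eed cKO libraries alone. Their list summed to 81.7 to 101 CPM in Eed cKO and 16.2 to 27.2 CPM in control, mostly from Krt79 at 61.9, 51.7 and 53.4 CPM in Eed cKO against 9.39, 7.32 and 5.94 CPM in control. The defining sebocyte genes Mc5r, Awat1 and Elovl3 were at or near 0 in every library, and Awat2 was at 2.40, 1.04 and 0.726 CPM in Eed cKO against 4.38, 2.59 and 1.29 CPM in control. The part of the sebocyte list in the values of Scd1, Scd2 and the 9 genes was not tested.

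Hair follicle markers summed to 179.5 to 224 CPM in Eed cKO and 83.4 to 162 CPM in control, with 0 of 5 higher and 1 lower by edgeR (1 and 2 by DESeq2, 1 and 0 by limma-voom). Most of that sum was Sox9, with means of 158 CPM in Eed cKO and 103 CPM in control. Lhx2 also had a positive fold change, whereas Krt71, the gene called lower by edgeR, Krt27 and Shh had negative ones. Merkel cell markers summed to 7.75 to 14.1 CPM in Eed cKO and 0.195 to 1.82 CPM in control, with 2 of 4 tested higher. Those 2, Sox2 and Isl1, had 0 counts in every control library and so passed the filter through the Eed cKO libraries alone. Over all genes tested, edgeR called 3.39% higher and 0.816% lower. The sums of these lists did not overlap between the groups, and their part in the values of the 9 genes was not tested. Adipocyte markers summed to 2.76 to 8.74 CPM in Eed cKO and 2.65 to 8.75 CPM in control, and dermal fibroblast markers to 566 to 649 CPM in Eed cKO and 385 to 579 CPM in control. Langerhans cell markers gave 52.1 to 301 CPM in Eed cKO and 83.2 to 389 CPM in control, and macrophage markers 27.3 to 91.6 CPM in Eed cKO and 58.0 to 138 CPM in control. All 4 macrophage markers had negative fold changes, 3 with an unadjusted p under 0.05 and 2 with ranges apart. Over all 14700 genes tested, 2185 had such a p in either direction, and 9.22% had ranges apart and lower. Of the macrophage markers 0 were called by edgeR (smallest adjusted p 0.0503), against 1 lower by DESeq2 and 0 by limma-voom. The part of the macrophage markers in the values of the 9 genes was not tested. Endothelial markers gave 5.94 to 32.4 CPM in Eed cKO and 4.92 to 33.9 CPM in control, and melanocyte markers 7.36 to 13.7 CPM in Eed cKO and 5.78 to 21.5 CPM in control. T cell markers stayed under 1 CPM in every library. These 6 sums and that of T cells overlapped between the groups.

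Across the 6 libraries Elovl4 and Abca12 ran in parallel, with a Pearson r of log2 CPM of 0.98. This describes 6 points that share the difference between the genotypes. Abhd5 followed both, with r of 0.81 to Elovl4 and 0.77 to Abca12, although it was not called. Alox12b ran against Elovl1 (r = -0.86) and had an r of 0.05 with Aloxe3.

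By the same measure over all genes at 5 CPM or more, the nearest to Abca12 were Extl2 (r = 0.996) and Epcam (0.994), and the nearest to Elovl4 were Zfp507 (0.994) and Bmi1 (0.994). For Elovl1 they were Ceacam19 (0.989) and Ell (0.974), for Cers3 Pak2 (0.996) and Tfcp2l1 (0.986), and for Ugcg Ccdc117 (0.989) and Map3k7 (0.983). Smpd1 had Acyp1 (0.986) among its nearest, Alox12b was nearest to Atxn10 (0.995) and Nsmce4a (0.990), and Aloxe3 to Paip1 (0.987) and Stk26 (0.972). Abhd5 had Marveld3 (0.992) among its nearest. No gene was among the nearest of more than 1 member, and 10217 genes were searched over these 6 libraries. How high r would run by chance in such a search was not tested.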

How the data were processed

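Per the labels and the values, each deposited file is 1 library of raw counts by gene symbol, not normalized by the authors. The submitters' processing notes list, without roles, mm10 as the build and HTSeq 0.6.1, TopHat2 2.0.13, DESeq2 1.6.3 and Cufflinks 2.2.1 as tools. The sources used here do not say which annotation or strand setting was used. Of 24453 symbols, 4791 had no count in any library.

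In R 4.3.3, edgeR 4.0.16 was used with filterByExpr on genotype (14700 genes kept, 9753 removed), TMM scaling, the quasi-likelihood F-test on genotype alone over 3 Eed cKO and 3 control libraries, and Benjamini-Hochberg adjustment over all genes tested at 0.05. The biological coefficient of variation was 0.334. The SE is the log2 fold change over the square root of F, and intervals are 95%. All 9 genes were above the filter's level in all 6 libraries. Intervals on counts cover counting error only, since amplified reads are not independent molecules. The pipeline was checked on simulated data.

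The members, lists and alternatives were chosen with earlier results of these data known. Genes were named by a rule: every member, every called gene of each list and, where fewer than 4 were called, the smallest p-values up to 4, set markers, and the 2 most alike genes for each member. A few genes this rule named are not reported here. Ratios, partial sums and some markers, as stated, were chosen after values were seen. The other settings tried were DESeq2 1.42.0, limma-voom (limma 3.58.1), scaling by RLE or upper quartile, no filter on low counts, a filter at 1 CPM in 3 libraries, a replicate block, leaving out Rn45s, and each library left out in turn. Coordinates and exonic lengths are from GENCODE M21 (GRCm38, the assembly mm10 names), and promoters from RefSeq. Figures were made in matplotlib 3.10.9 with Python 3.11.15.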

Additional observations from a re-analysis of the deposited data

How the results depend on the processing

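The count of 2 members higher and 0 lower was the same under the 8 alternatives that kept all libraries, and ran from 1 to 2 higher and 0 to 0 lower when 1 library was left out, always with Elovl4 called. Of 126 alternative values of the 9 genes, 119 kept direction and side of the threshold, 4 (all Abca12) lost the call and 3 turned direction. With 1 library left out, the log2 fold change of Aloxe3 ran from -0.39 (without Eed cKO library 3) to 0.83 and that of Ugcg from -0.051 (without control library 1) to 0.19, with -0.021 without Eed cKO library 3. Leaving out 1 library gave 4 to 9 other pathway genes higher and 0 to 1 lower, against 12 and 1, and 302 to 456 higher and 35 to 118 lower over all genes, against 499 and 120. Without a filter 257 of all genes were lower, and DESeq2 called 764 higher and 270 lower. With a replicate block, 675 of all genes were higher and 269 lower, with 2 and 0 members and 15 and 2 other pathway genes; among named genes Elovl2 was lost with it (adjusted p 0.0547 by edgeR), and Sgms2 (0.0386), Ephx3 (0.0162), Krt1 (0.00488) and Lor (0.0243) passed. Same-numbered libraries deviated together with r of 0.23, 0.11 and -0.00, against -0.19 to 0.099 for libraries of different numbers. The labels do not say whether the numbers pair libraries, and so few values cannot settle it. Among markers, the log2 fold change of Krt5 turned to 0.00135 with RLE scaling and with DESeq2, 0.0114 with upper-quartile scaling, 0.00172 with at least 1 CPM in 3 libraries and 0.00574 without Rn45s, and ran from -0.10 to 0.12 with 1 library left out. Over the same runs Krt14 lay between -0.27 and 0.034 and Ly6a between -0.10 and 0.45. The cause of these shifts was not tested. The median log2 fold change of all genes stayed between -0.02 and 0.02. Alox12b and Aloxe3 had at most 308 counts in any library.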
